A study of Mus musculus with 28 samples.

Results

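The voltage-gated calcium channel subunits described here are 10 genes of mouse sensory neurons, Cacna1a, Cacna1b, Cacna1c, Cacna1d, Cacna1e, Cacna1h, Cacna2d1, Cacna2d2, Cacna2d3 and Cacnb3. They were picked by gene symbol in 2 expression tables that each list 45952 genes, and all 10 had a single entry in each table. Expression is given as FPKM, a fragment count scaled by transcript length and by the mapped reads of the library, so levels can be compared between genes of different length. Neurons from 3 male and 3 female libraries were purified with magnetic beads (MACS) from lumbar dorsal root ganglia (DRG) of C57BL/6J mice, aged 6 weeks to 7 months, on day 8 after partial sciatic nerve ligation (SNL), with the females ligated and harvested in estrus. Neurons from 11 male and 11 female naïve libraries were sorted by FACS from AdvGFP mice (Tg(Avil-EGFP), aged 3 to 6 months), whose green fluorescent protein is under the advillin promoter and marks sensory neurons. Each library pooled 2 mice. According to the methods the bead selection keeps small-diameter C fibres and some erythrocytes, the sorted neurons carry attached satellite glia, and the 11 naïve replicates of each sex comprise 2 from trigeminal ganglia and 9 from lumbar DRG.

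A voltage-gated calcium channel is built around 1 pore-forming alpha1 protein, which senses the membrane potential and sets the current type. Cacna1b encodes the N-type pore, Cacna1a the P/Q-type and Cacna1e the R-type, which serve transmitter release, while Cacna1c and Cacna1d encode L-type pores and Cacna1h the low-threshold T-type pore Cav3.2. The beta subunit encoded by Cacnb3 binds the pore inside the cell and aids its delivery to the membrane. The alpha2delta subunits, encoded by Cacna2d1, Cacna2d2 and Cacna2d3, sit outside the membrane and raise the number of channels at the surface. Gabapentin and pregabalin, given for neuropathic pain, bind the products of Cacna2d1 and Cacna2d2. In sensory neurons N-type channels carry much of the calcium that releases transmitter in the dorsal horn, and Cav3.2 is known from low-threshold mechanoreceptors and from a set of small neurons.

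Libraries had 30544219 to 50649730 input reads after SNL and 24800048 to 40035653 in naïve neurons. RNA integrity numbers (RIN) were 5.8 to 8.4 in male and 7.4 to 9.1 in female SNL libraries, and averaged 7.75 in male and 8.86 in female naïve libraries, with values of 5.2 in male naïve replicate 3 and 5.5 in male naïve replicate 7. The neuronal markers found (9 of 10 listed, Tubb3 not being matched by symbol) summed to 6951 to 8005 FPKM in SNL and 6002 to 9090 FPKM in naïve libraries. The 10 satellite glia markers summed to 108 to 153 FPKM in SNL and 1665 to 7152 FPKM in naïve libraries, with Kcnj10, Sox10 and Cdh19 at 0.038 FPKM or less after SNL. Not all markers of this list were low after SNL. Glul was at 37.0 to 71.5 FPKM after SNL and 21.8 to 52.1 FPKM in naïve libraries. S100b was at 56.0 to 113.5 FPKM after SNL and 57.6 to 1041 FPKM in naïve libraries. The 7 erythroid markers summed to 570 to 18970 FPKM in SNL and 2.24 to 81.0 FPKM in naïve libraries. The 8 large-diameter markers summed to 61.4 to 105 FPKM in SNL and 65.6 to 960 FPKM in naïve libraries. The 10 injury markers summed to 1214 to 3376 FPKM in SNL and 348 to 7970 FPKM in naïve libraries. Among them Atf3 was at 62.3 to 276 FPKM after SNL and 1.71 to 166 FPKM in naïve libraries (median 7.78). Trunk Hox genes, which mark the DRG against the trigeminal ganglion, were near 0 in 4 naïve libraries (male replicates 2 and 10, female replicates 2 and 11), and the labels do not say which libraries are trigeminal.

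The stretches of 250 bases before the start site are shown for 3 genes, in the strand of the gene. Cacna1b and Cacna2d1 varied together among naïve libraries and stood high after SNL, while Cacna2d3 stood low after SNL. Capitals mark GGGCGG or its reverse complement CCGCCC, the letters of a GC box, and runs of capitals hold overlapping matches. The sequences are from RefSeq on build GRCm38.p6, for Cacna1b from chr2:24763153-24763402 on the minus strand, for Cacna2d1 from chr5:15934441-15934690 on the plus strand and for Cacna2d3 from chr14:29721865-29722114 on the minus strand.
Cacna1b: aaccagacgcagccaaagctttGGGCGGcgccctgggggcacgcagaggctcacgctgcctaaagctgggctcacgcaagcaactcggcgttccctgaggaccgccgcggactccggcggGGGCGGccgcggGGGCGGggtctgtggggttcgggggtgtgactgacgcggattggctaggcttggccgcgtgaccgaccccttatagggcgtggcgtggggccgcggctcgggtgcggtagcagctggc
Cacna2d1: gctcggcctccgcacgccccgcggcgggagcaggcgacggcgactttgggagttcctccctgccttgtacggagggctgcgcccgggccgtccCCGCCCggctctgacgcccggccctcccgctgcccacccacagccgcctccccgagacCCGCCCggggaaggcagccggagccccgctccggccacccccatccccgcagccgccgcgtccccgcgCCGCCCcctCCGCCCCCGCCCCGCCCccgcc
Cacna2d3: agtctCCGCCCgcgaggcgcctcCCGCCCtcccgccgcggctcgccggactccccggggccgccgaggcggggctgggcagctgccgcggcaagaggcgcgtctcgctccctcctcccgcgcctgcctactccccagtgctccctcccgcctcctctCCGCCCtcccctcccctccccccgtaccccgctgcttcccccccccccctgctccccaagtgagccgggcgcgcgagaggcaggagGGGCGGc
On both strands the letters occurred 3 times before Cacna1b, 6 times before Cacna2d1 and 4 times before Cacna2d3. RefSeq windows were matched for 8 of the 10 genes, Cacna1a and Cacna1h not being among them, and 7 of their 12 windows, from 7 different genes, held a GC box, against 32.7% of all 32851 windows. Bases were 72.0% G or C before Cacna1b, 82.4% before Cacna2d1 and 80.0% before Cacna2d3, with a median of 52.4% over all windows. The core letters of the cyclic AMP response element (TGACG or CGTCA) occurred in 3 of the 12 windows, against 17.8% of all windows. They occurred once each before Cacna1b, before Cacna2d1 and in 1 of the windows of Cacna1c. The AP-1 site (TGACTCA or TGAGTCA, 4.46% of all windows) occurred in none of the 12 windows of these genes. These matches describe letters and were not tested against expression.

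The beta subunit was by far the most abundant member. Cacnb3 (chr15:98630840-98644529, mm10) was at 63.9, 157 and 75.7 FPKM in male SNL libraries and at 143, 115 and 127 FPKM in female SNL libraries. In naïve neurons it was at 60.0 to 133 FPKM in males (median 95.6) and 60.1 to 141 FPKM in females (median 102). The ranges overlapped between all groups, and Cacnb3 stood above 85.9% to 94.1% of the 11303 genes tested in SNL libraries and above 86.5% to 94.1% of the 12893 tested in naïve libraries. Its spread among naïve libraries was small, with an SD of 0.36 on the log2(FPKM + 1) scale against a median SD of 0.50 over all genes tested.

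Cacna2d1 was the leading alpha2delta gene and lay high after SNL. Cacna2d1 (chr5:15934691-16374511) was at 19.3, 17.5 and 34.3 FPKM in male SNL and at 18.1, 27.6 and 25.1 FPKM in female SNL libraries. Naïve libraries held 3.61 to 22.8 FPKM in males (median 10.8) and 6.22 to 21.5 FPKM in females (median 13.4). All 6 SNL libraries stood above the naïve median of 12.1 FPKM and 3 of them above the highest naïve library, so the ranges still overlapped. The highest SNL value came from male replicate 3, which had the lowest RIN (5.8), and without it SNL libraries held 17.5 to 27.6 FPKM.

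Of the other alpha2delta genes, Cacna2d3 lay low after SNL and Cacna2d2 was mixed. Cacna2d3 (chr14:28904943-29721864) was at 2.63, 3.91 and 1.98 FPKM in male SNL and at 3.59, 4.81 and 5.84 FPKM in female SNL libraries, all 6 below the naïve median of 6.10 FPKM. Naïve libraries spanned 1.11 to 7.67 FPKM in males and 2.31 to 13.8 FPKM in females. Cacna2d2 (chr9:107399612-107529343) was at 0.727, 1.12 and 1.31 FPKM in male SNL and at 1.01, 3.40 and 3.02 FPKM in female SNL libraries, 3 of the 6 below every naïve library and 2, female replicates 2 and 3, above the naïve median of 2.79 FPKM. Naïve libraries held 1.39 to 6.41 FPKM in males (median 3.08) and 1.19 to 5.47 FPKM in females (median 2.56) of this gene.

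Among the pore-forming genes the N-type pore led. Cacna1b (chr2:24603887-24763152) was at 6.07, 9.64 and 10.1 FPKM in male SNL and at 8.41, 13.9 and 8.67 FPKM in female SNL libraries. In naïve neurons it was at 2.17 to 6.61 FPKM in males (median 5.15) and 2.73 to 7.19 FPKM in females (median 5.15). Of the 6 SNL libraries, 5 stood above the highest naïve library, and male SNL replicate 1 lay inside the naïve range. The other pores of transmitter release were low. Cacna1a (chr8:84388440-84640246) was at 0.252, 1.25 and 0.563 FPKM in male SNL and at 0.690, 0.797 and 2.11 FPKM in female SNL libraries, and at 0.512 to 5.62 FPKM in male naïve (median 1.22) and 0.277 to 2.43 FPKM in female naïve libraries (median 1.04). An antisense gene, Gm16183, overlaps Cacna1a, and since strand was not stated their reads cannot be told apart. Cacna1e (chr1:154390731-154884501) stayed under 1 FPKM in all 6 SNL libraries (0.108 to 0.413 FPKM) and in 21 of 22 naïve libraries, with a naïve median of 0.223 FPKM.

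The L-type pore Cacna1c was low but present, and Cacna1d was near the floor. Cacna1c (chr6:118587240-119196418) was at 1.47, 1.73 and 2.76 FPKM in male SNL and at 1.51, 2.88 and 2.89 FPKM in female SNL libraries, all above the naïve median of 1.43 FPKM and inside the naïve range of 0.883 to 3.02 FPKM. Cacna1d (chr14:30039939-30491455) was at 0.144 to 0.284 FPKM after SNL and at 0 to 1.07 FPKM in naïve libraries, where it was listed at 0 in 2. Other genes overlap these loci, Dcp1b at Cacna1c and Dcp1a and Chdh at Cacna1d, as Gm6043 and Lrtm1 do at Cacna2d3 and Tpsg1 at Cacna1h, so part of these values is uncertain. Their highest naïve values were 6.01 FPKM for Dcp1b, 1.83 for Dcp1a, 0.531 for Chdh and 1.55 for Gm6043. For Lrtm1 the highest was 0.035 FPKM and for Tpsg1 it was 0.

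The T-type pore Cacna1h was the most uneven member among naïve libraries. Cacna1h (chr17:25374285-25433783) was at 1.05, 3.35 and 0.398 FPKM in male SNL and at 2.46, 2.75 and 1.84 FPKM in female SNL libraries. Among male naïve libraries it was at 0.0096, 0.021, 0.010 and 0.058 FPKM in replicates 5, 7, 8 and 9, and at 1.04 to 2.78 FPKM in the other 7. The 11 female naïve libraries held 0.977 to 3.03 FPKM (median 1.74). Its log2 SD of 0.64 exceeded that of 74.2% of all genes tested in naïve neurons.

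**Figure D1:**
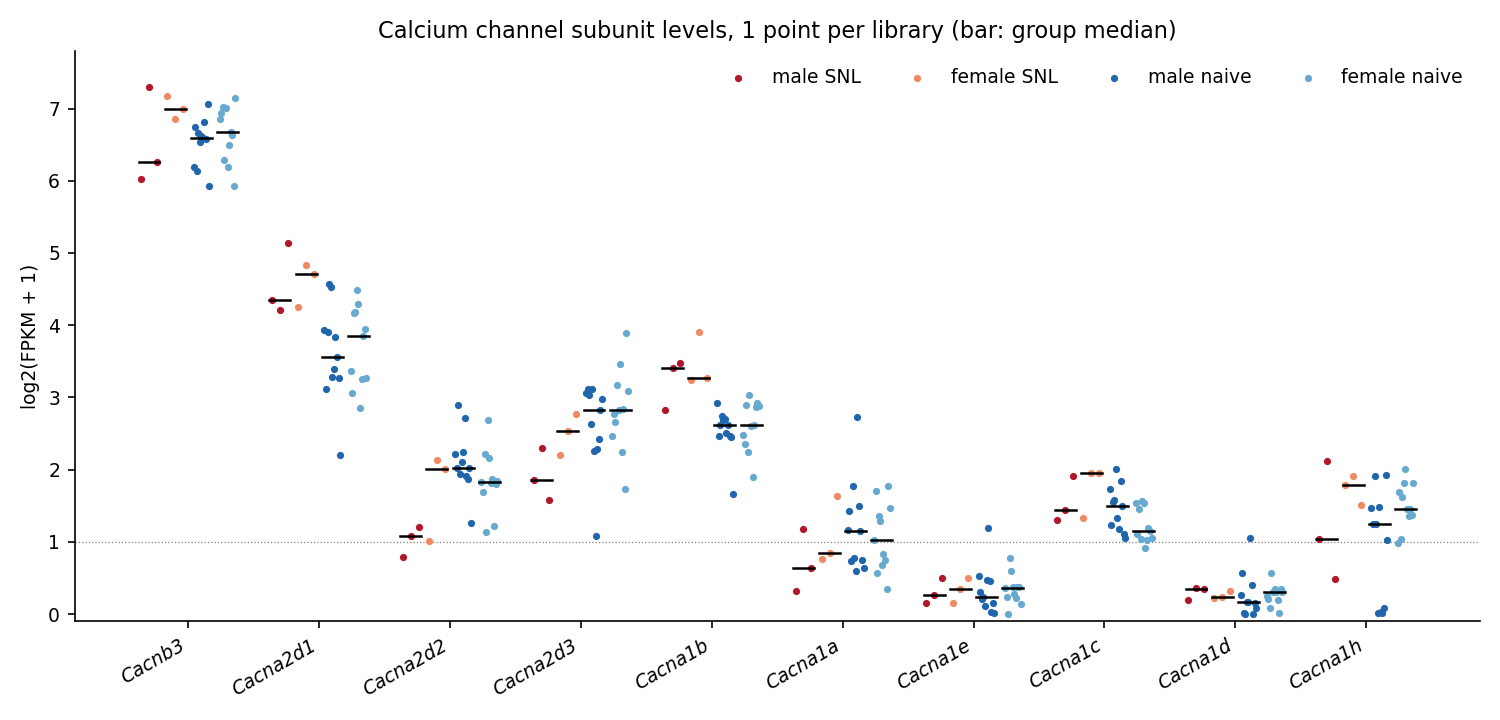
Level of each subunit gene as log2(FPKM + 1) in every library, with 3 male and 3 female SNL and 11 male and 11 female naïve libraries. Points are libraries, bars group medians, and the dotted line marks 1 FPKM. Cacnb3 lies highest in every group, and 4 male naïve libraries lie near 0 for Cacna1h.

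By their medians the genes fell in the order Cacnb3, Cacna2d1, Cacna1b, Cacna2d3, Cacna1c, Cacna1h, Cacna2d2, Cacna1a, Cacna1e and Cacna1d after SNL. In naïve neurons the order was Cacnb3, Cacna2d1, Cacna2d3, Cacna1b, Cacna2d2, Cacna1h, Cacna1c, Cacna1a, Cacna1e and Cacna1d. Neighbours whose mean log2 difference was no larger than its SD across libraries were Cacna1c and Cacna1h, Cacna1h and Cacna2d2, and Cacna1e and Cacna1d after SNL. In naïve neurons they were Cacna2d3 and Cacna1b, the run Cacna2d2, Cacna1h, Cacna1c and Cacna1a, and Cacna1e and Cacna1d. Cacnb3 stood above Cacna2d1 in all 6 SNL and all 22 naïve libraries. Cacna1b stood above Cacna2d3 in all 6 SNL libraries, while Cacna2d3 stood above Cacna1b in 13 of the 22 naïve libraries.

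SNL and naïve neurons differ in strain, purification, injury and the table they were normalized in. They also differ in the ganglia taken, the age range and the control of estrus. These cannot be told apart, so their levels were set side by side with no test. In these bulk samples fewer cells of a type and less RNA per cell cannot be told apart either. None of the 8 members that passed the filter on low values in either table had SNL and naïve ranges apart. Over all 13157 such genes, 1.11% lay with all SNL libraries above all naïve libraries and 1.72% with all below. Shares within a subfamily do not depend on how a library was scaled. Cacna2d1 made up 73.9% to 91.2% of the summed FPKM of the 3 alpha2delta genes after SNL (median 78.7%) and 30.4% to 78.6% in naïve neurons (median 56.7%). All 6 SNL libraries stood above 20 of the 22 naïve libraries in this share, and female naïve replicate 9 and male naïve replicate 4 lay inside the SNL range. On the injury marker score described below these 2 libraries had 2.59 and 1.49. Female naïve replicate 5, with a score of 1.74, had a share of 65.0%, below the SNL range. In the 4 naïve libraries with trunk Hox genes near 0 the Cacna2d1 share was 41.7% to 48.7%, and the part of the ganglia taken was not tested. Cacna2d2 made up 3.20% to 9.50% after SNL and 4.53% to 34.3% in naïve neurons, and Cacna2d3 5.26% to 17.3% after SNL and 6.87% to 58.0% in naïve neurons.

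Of the 6 pore-forming members, Cacna1b had the largest share in all 6 SNL and in 21 of 22 naïve libraries. It made up 53.6% to 69.7% of their summed FPKM after SNL (median 64.8%) and 33.4% to 65.8% in naïve neurons (median 50.6%), and 3 SNL libraries stood above every naïve one. In male naïve replicate 7, with a RIN of 5.5, Cacna1a led with 40.3%. That library also held the highest Cacna1a (5.62 FPKM), Cacna1d (1.07 FPKM) and Cacna1e (1.29 FPKM) and the lowest Cacna2d3 (1.11 FPKM) of all 22 naïve libraries, and the part of RNA quality in these values was not tested in a single library. Without it naïve libraries held Cacna1a at 0.277 to 2.43 FPKM. The glial and erythroid marker sums given above did not overlap between SNL and naïve libraries, and their part in the levels and shares was not tested.

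**Figure D2:**
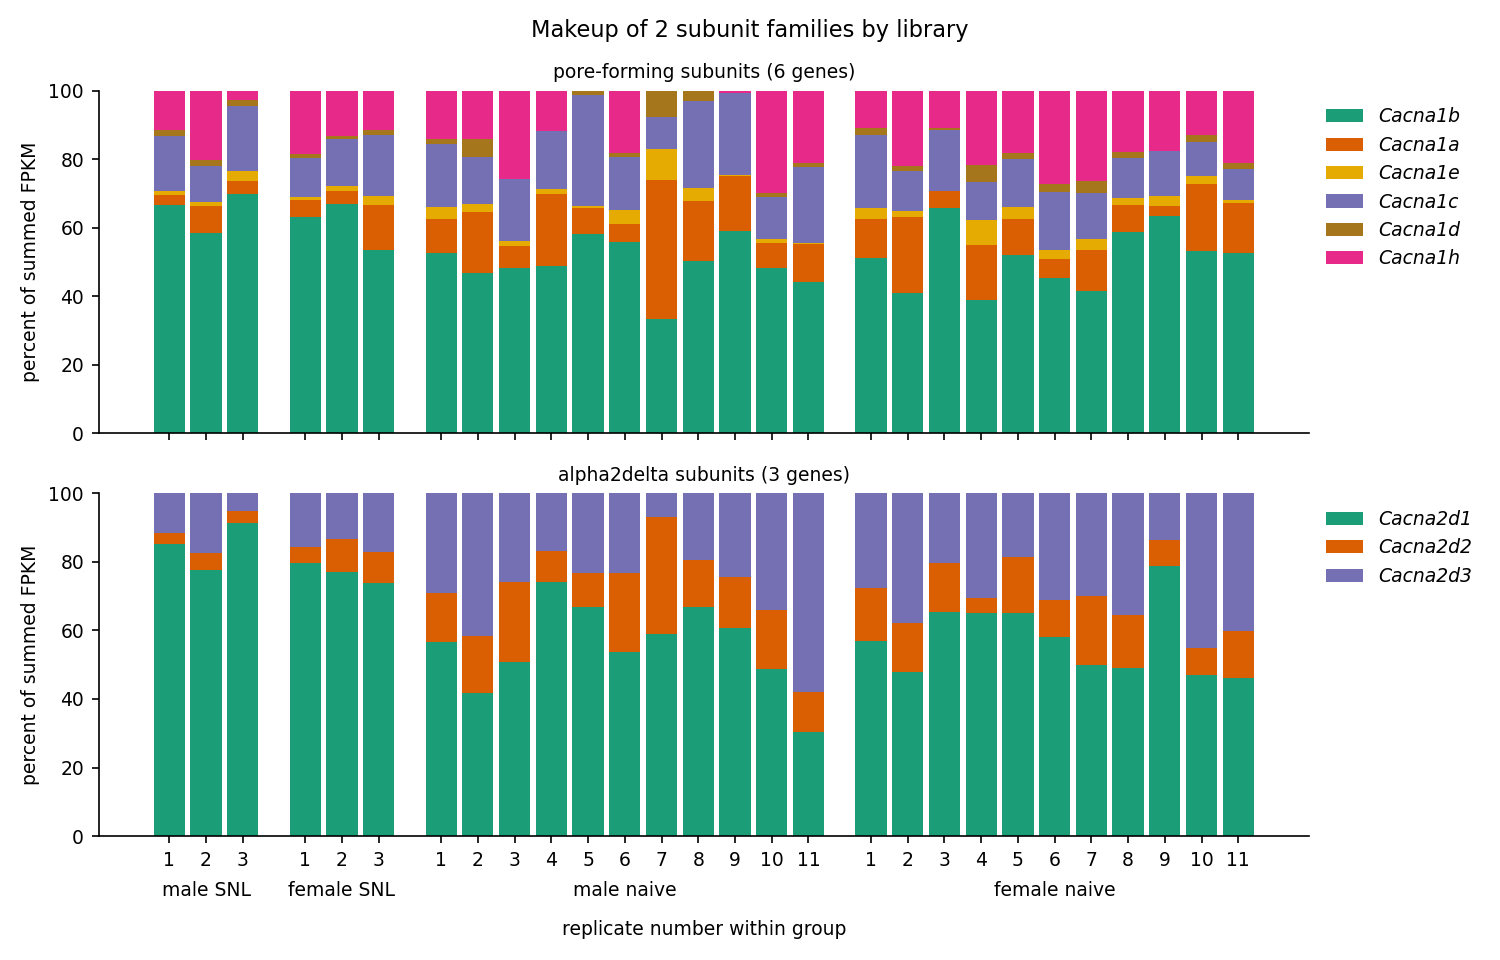
Percent of the summed FPKM of the 6 pore-forming genes (top) and the 3 alpha2delta genes (bottom) that each gene made up, 1 bar per library, with SNL left of naïve libraries and male left of female. Cacna2d1 takes 73.9% or more of the lower bars in SNL libraries.

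The study asked whether sensory neurons of males and females differ, and no subunit gene passed the limma test of that difference. Of the 10 genes, 7 passed the filter after SNL (Cacna1a, Cacna1d and Cacna1e did not) and 8 in naïve neurons (Cacna1d and Cacna1e did not). At an adjusted p under 0.05, 0 of 7 were called after SNL, where 0.0442% of 11303 genes were, and 0 of 8 in naïve neurons, where 0.0543% of 12893 genes were. At an unadjusted p under 0.05 the counts were 0 of 7 after SNL, against 3.69% of all genes, and 1 of 8 in naïve neurons, against 8.29% of all genes.

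The member with that p was Cacna1h. It averaged 1.18 ± 1.06 FPKM in male and 1.91 ± 0.63 FPKM in female naïve libraries (SD, n = 11 each), a log2 difference of -0.56 (SE 0.25, unadjusted p = 0.0316, limma adjusted p = 0.595). Leaving out any 1 of the 4 male libraries near 0, or female replicate 6, raised the unadjusted p above 0.05. The large-diameter marker score described below averaged -0.28 in male and 0.28 in female naïve libraries, the low-threshold score -0.41 in male and 0.41 in female libraries, and RIN 7.75 in male and 8.86 in female libraries. The part of the marker scores in the sex difference was not tested. With RIN as a covariate, 1 of the 8 members had an unadjusted p under 0.05 in limma. The count was recorded without the name of the member or the share of all genes at that p. This fit left out male replicate 8, which has no RIN and is 1 of the 4 male libraries near 0. No subunit gene was called in the fit with RIN at the adjusted threshold, where 6 of 12893 genes were. After SNL Cacna1h averaged 1.60 ± 1.55 FPKM in male and 2.35 ± 0.47 FPKM in female libraries (n = 3 each, limma adjusted p = 0.945).

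The most abundant members did not pass the test in naïve neurons either. Cacnb3 averaged 93.8 ± 20.7 FPKM in male and 103 ± 26.2 FPKM in female libraries (log2 difference -0.12, SE 0.15), and Cacna2d1 12.3 ± 5.89 FPKM in male and 12.9 ± 5.18 FPKM in female libraries (-0.10, SE 0.25). Cacna1b averaged 4.90 ± 1.11 FPKM in male and 5.30 ± 1.40 FPKM in female naïve libraries (-0.09, SE 0.16). The remaining fitted differences were 0.13 for Cacna1a, 0.23 for Cacna1c, 0.26 for Cacna2d2 and -0.21 for Cacna2d3, and the median over the 8 members was -0.09, against -0.07 over all genes. The adjusted p of the 8 members was at least 0.595 in limma.

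After SNL the fitted difference was below 0 for all 7 members, with Cacna2d1 turning above 0 (0.03 and 0.05) under quantile and median-of-ratios scaling. The median over the 7 was -0.48, against -0.08 over all genes. The share of all genes below 0 was not counted. The 7 members were measured in the same libraries, so their signs are not independent. Cacna2d2 averaged 1.05 ± 0.30 FPKM in male and 2.48 ± 1.28 FPKM in female SNL libraries (log2 difference -0.69, SE 0.38, unadjusted p = 0.104), and Cacna2d3 2.84 ± 0.98 FPKM in male and 4.75 ± 1.13 FPKM in female libraries (-0.59, SE 0.32, unadjusted p = 0.102). Cacnb3 averaged 98.7 ± 50.4 FPKM in male and 128.5 ± 13.9 FPKM in female SNL libraries (-0.48, SE 0.32). Cacna2d1 was at 23.7 ± 9.19 FPKM in male and 23.6 ± 4.93 FPKM in female SNL libraries (-0.03, SE 0.30). Adjusted p values were at least 0.945 for all 7 in limma. Without male SNL replicate 2 the number with an unadjusted p under 0.05 was 2, without female SNL replicate 1 it was 1, and with RIN as a covariate it was 1. At the adjusted threshold, calls over all genes in these fits were 13, 13 and 5, against 5 in the main fit. The share of all genes with an unadjusted p under 0.05 was not recorded for them, and neither were the names of the members. These counts of members therefore cannot be set against all genes.

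**Figure D3:**
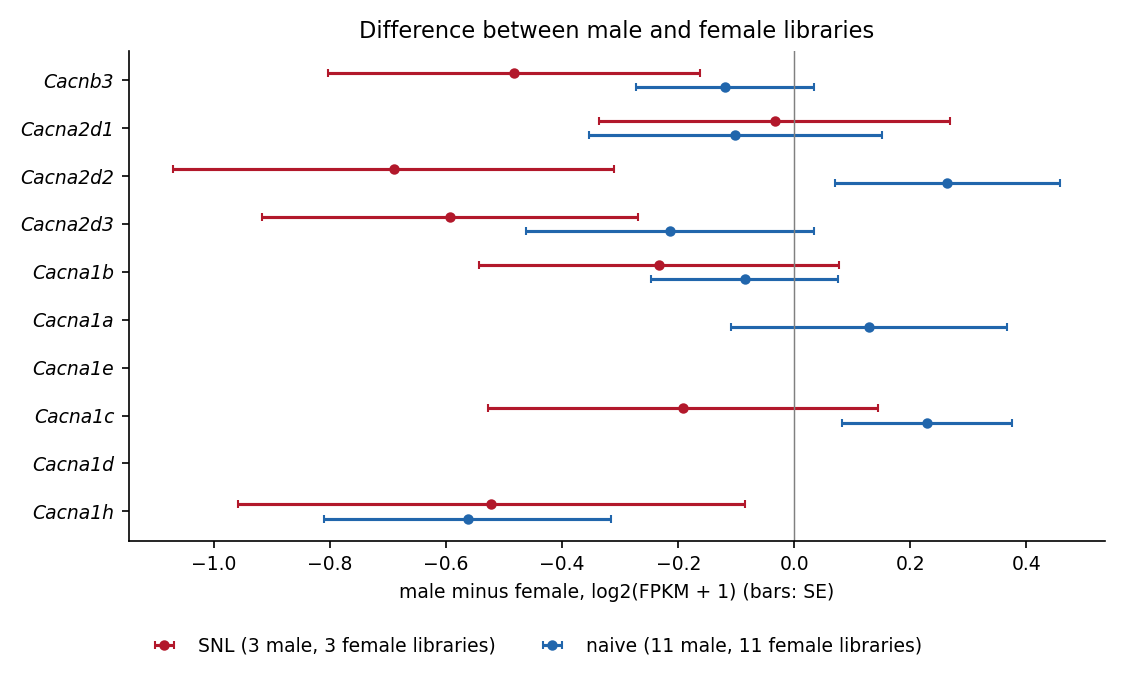
Male minus female difference on the log2(FPKM + 1) scale for each subunit gene, with SNL above naïve and bars giving the SE. Genes without a point did not pass the filter on low values. No difference passes an adjusted p of 0.05, and Cacna1h has the smallest unadjusted p (0.0316 in naïve neurons).

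Variation among the 22 naïve libraries was followed along 6 library measures, namely RIN and 5 scores, each the mean of the scaled log2 levels of a marker list, with sex as a covariate and no calcium channel gene in any score. A slope is the change in log2(FPKM + 1) per SD of a score or per RIN unit. None of the 8 tested members had a slope at an adjusted p under 0.05 on any of the 6 measures. Over all genes, 2.99% rose and 1.58% fell with the large-diameter score, 6.87% rose and 4.29% fell with the nonpeptidergic score, and 1.09% rose and 0.217% fell with the score of low-threshold small neurons. Shares were lower for the other measures, with 0.287% rising and 0.0155% falling on the satellite glia score, 0.225% and 0.0233% on the injury score, and 0.0465% and 0.0233% on RIN, which was fitted on the 21 libraries that have one (not male replicate 8).

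Cacna1h had the steepest slope of the members on the large-diameter score, 0.35 (SE 0.11, unadjusted p = 0.00584, limma adjusted p = 0.0852). The score averages markers of large myelinated neurons such as Nefh, Pvalb and Ntrk3. The 4 male libraries with Cacna1h near 0 had scores of -1.46, -1.73, -1.41 and -1.10, while male replicate 4 with a score of -1.16 held 1.37 FPKM and female replicate 3 with -0.99 held 1.06 FPKM. Cacna1h was called with a pseudocount of 0.1 (slope 0.94, adjusted p = 0.0384), and without male replicates 5 and 7, the 2 libraries farthest from the median score, its slope was 0.24 (adjusted p = 0.349). On the low-threshold score its slope was 0.33 (unadjusted p = 0.0139, adjusted p = 0.247).

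Cacna2d3 and Cacna2d1 had fitted slopes of opposite sign on the large-diameter score. Cacna2d3 had a slope of 0.30 (SE 0.12, adjusted p = 0.153) and Cacna2d1 one of -0.27 (SE 0.13, adjusted p = 0.235), neither past the threshold. Cacna2d3 also had a slope of -0.31 on the injury score (SE 0.12, adjusted p = 0.355), a list led by Atf3 and Sprr1a, and Cacna2d1 one of 0.19 (SE 0.13, adjusted p = 0.652).

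Cacna1b had its steepest slopes on the satellite glia score, -0.23 (SE 0.07, unadjusted p = 0.00437, adjusted p = 0.236), and on the nonpeptidergic score, 0.21 (SE 0.07, unadjusted p = 0.00753, adjusted p = 0.0606), whose list holds Mrgprd and P2rx3. The second was called with a pseudocount of 0.1 (slope 0.27, adjusted p = 0.0474) and was 0.10 (adjusted p = 0.880) without male replicate 11 and female replicate 4, the 2 libraries farthest from the median score. Male replicate 11 had the lowest nonpeptidergic score of the naïve libraries (-3.39) and also their lowest Cacna1b (2.17 FPKM), Cacna2d1 (3.61 FPKM) and Cacnb3 (60.0 FPKM).

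**Figure D4:**
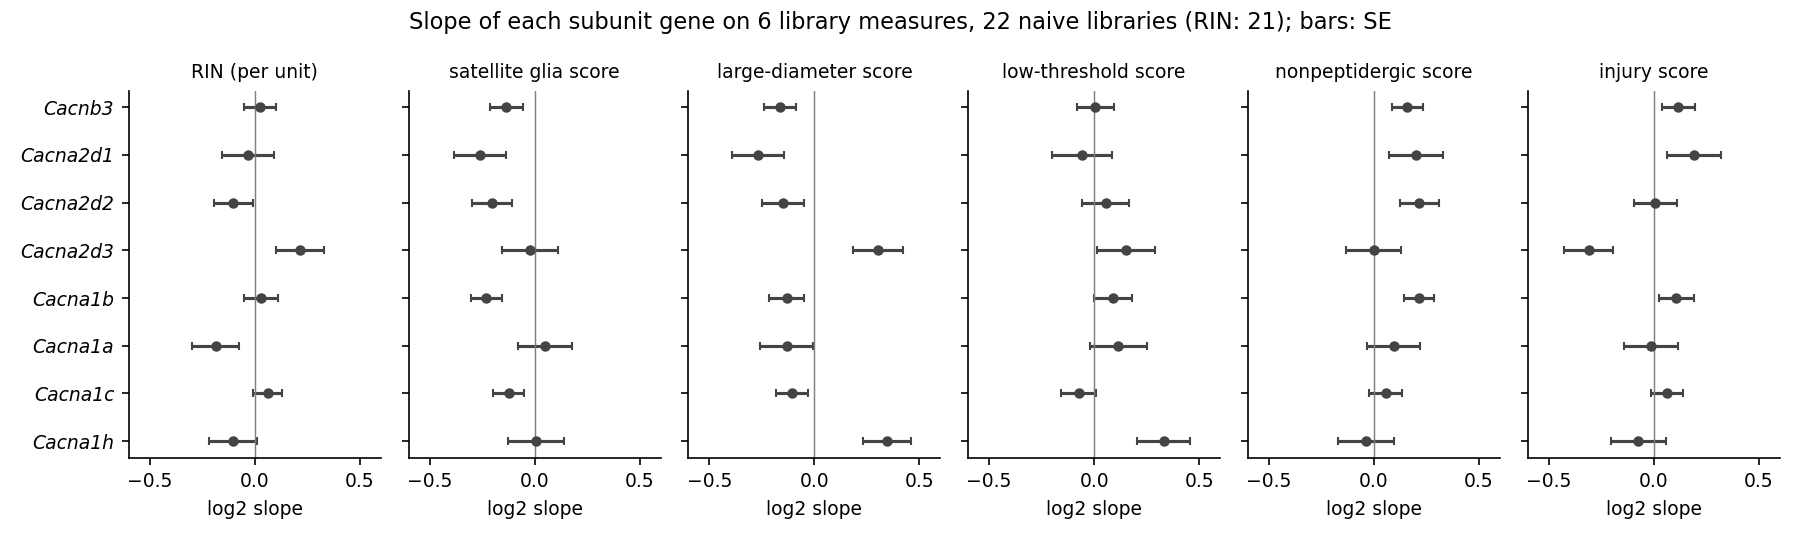
Slope of each tested subunit gene on 6 measures of the naïve libraries, per SD of a score or per RIN unit, with bars giving the SE. No slope passes an adjusted p of 0.05, and Cacna1h lies farthest right on the large-diameter score (0.35).

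**Figure D5:**
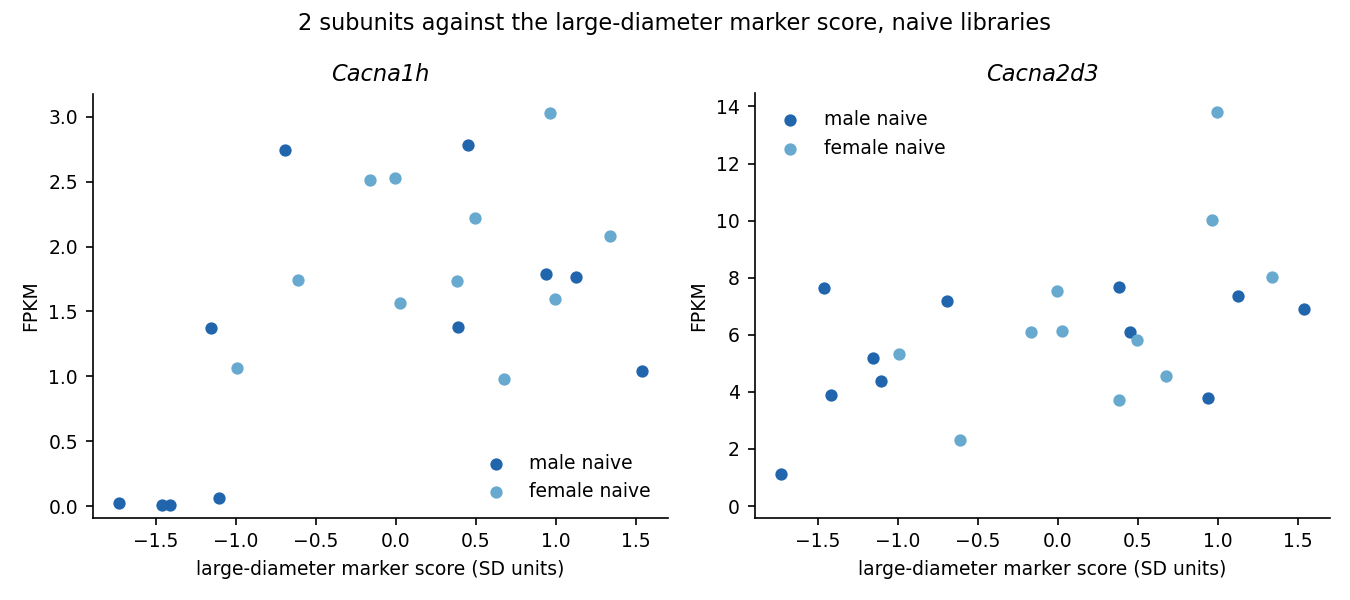
FPKM of Cacna1h (left) and Cacna2d3 (right) against the large-diameter marker score, 1 point per naïve library, with male and female libraries in different blues. The 4 male libraries near 0 for Cacna1h have scores of -1.10 or below.

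In the 4 naïve libraries with trunk Hox genes near 0, Cacna2d1 was at 7.35 to 8.68 FPKM, against 3.61 to 22.8 FPKM (median 13.7) in the other 18, and Cacnb3 at 107 to 141 FPKM, against 60.0 to 128.5 FPKM (median 94.97). Cacna1h was at 1.38 to 2.78 FPKM in these 4 and at 0.0096 to 3.03 FPKM in the other 18, and the ranges overlapped for all 10 members.

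Across naïve libraries Cacna1b and Cacna2d1 had a Pearson r of 0.69 on log2(FPKM + 1) over 22 libraries, and Cacna1c and Cacna2d1 one of 0.64. The r of 0.81 between Cacna1d and Cacna1e and of 0.69 between Cacna1a and Cacna1d fell to 0.61 and 0.41 without male replicate 7. All points share depth, RNA quality and neuron makeup of the library, so these are descriptions. Among 7382 genes with a mean of at least 5 FPKM, the 3 most like Cacna1h were the calcium pump Atp2b2 (r = 0.86), the synaptic organizer Cbln2 (0.86) and the serotonin receptor Htr1d (0.85, FPKM 1.31 to 36.8). The 3 most like Cacnb3 were Sgta (0.89), the dynactin subunit Dctn1 (0.88) and the CREB coactivator Crtc2 (0.87). Cacna1b went with Nav1 (0.82), Pisd-ps1 (0.79) and Susd6 (0.77), and Cacna2d1 with the semaphorin Sema6d (0.81), Fam102b (0.81) and the kinase Ttbk2 (0.80).

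The level of the genes named here was set by the rule of a mean of at least 5 FPKM. The r values with them were not refitted without male replicate 7. Cacna1a went with Gemin2 (0.76), Taz (0.74) and Brix1 (0.74), Cacna1d with N4bp2l1 (0.73), Mtif2 (0.73) and Bnip2 (0.72), and Cacna1e with Marcks (0.75), Rragd (0.71) and Wdr3 (0.70). Cacna1c went with Pitpnm2 (0.79), Ggnbp2 (0.78) and Runx1t1 (0.74). Cacna2d2 had the least close neighbours, Ppp2r2c (0.70), Mef2a (0.68) and Pmm2 (0.68), and Cacna2d3 went with the phosphatase Ppm1a (0.81), Hs6st1 (0.81) and Pnisr (0.79).

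Of 16 other channel subunit genes, 5 passed the filter after SNL and 6 in naïve neurons. Of these, 0 differed by sex at the adjusted threshold in either, or at an unadjusted p under 0.05 in limma. Over all genes the unadjusted shares were 3.69% after SNL and 8.29% in naïve neurons. The beta subunit gene Cacnb4 was at 11.9 to 17.1 FPKM after SNL and 3.56 to 18.0 FPKM in naïve libraries. Cacnb1 was listed at 0 in 3 of 6 SNL and 12 of 22 naïve libraries and stood at 8.69 to 10.4 FPKM in the other SNL and 7.59 to 14.3 FPKM in the other naïve libraries. It is among the genes tested, with these zeros included, and no fold change is given for it. The T-type pores Cacna1g and Cacna1i stayed under 1 FPKM in every library, Cacna1g being listed at 0 in all 6 SNL and 20 of 22 naïve libraries. Cacng4, of the gamma family that also serves glutamate receptors, was at 0 to 0.547 FPKM after SNL and 0.260 to 2.47 FPKM in naïve libraries, with 5 SNL libraries below every naïve one.

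Along the scores 2 of these genes were called, against the shares of all genes given above. Cacnb4 rose with the low-threshold score (slope 0.56, SE 0.10, limma adjusted p = 0.00621), and Cacng5, another gamma gene, rose with both the low-threshold score (0.77, SE 0.15, adjusted p = 0.00869) and the large-diameter score (0.59, SE 0.17, adjusted p = 0.0427). Without the 4 libraries low in trunk Hox genes the 3 slopes were 0.58, 0.74 and 0.54 and the adjusted p values 0.0978, 0.156 and 0.127.

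Of 25 genes whose products bind or regulate the channels, 20 passed the filter in each table, and 0 differed by sex at the adjusted threshold. At an unadjusted p under 0.05 in limma there were 2 after SNL (Calm3 and Stac), against 3.69% of all genes. In naïve neurons there was 1 (Stac2), against 8.29% of all genes. All 6 SNL libraries stood above all 22 naïve libraries for 1 of the 20, the vesicle calcium sensor Syt1, and below them for none. Over all 13157 genes that passed a filter, 1.11% lay above and 1.72% below. Syt1 was at 71.7 to 109 FPKM after SNL and 27.9 to 66.0 FPKM in naïve libraries. The vesicle fusion gene Stx1a had a median of 92.4 FPKM after SNL and 63.1 FPKM in naïve libraries, with 5 SNL libraries above every naïve one. Snap25, of the same fusion complex, had a median of 729 FPKM after SNL and 1102 FPKM in naïve libraries, with 3 SNL libraries below every naïve one. Fmr1, which encodes an RNA-binding protein, had a median of 3.75 FPKM after SNL and 7.799 FPKM in naïve libraries, with 5 SNL libraries below every naïve one. On the low-threshold score the active zone gene Rims1 (0.85, SE 0.11, adjusted p = 0.000442) and the adaptor gene Stac2 (0.52, adjusted p = 0.0318) rose. On the large-diameter score the adaptor gene Stac fell (-0.47, adjusted p = 0.00327). Without the 4 libraries low in trunk Hox genes Stac2 (adjusted p = 0.334) was no longer called. On the nonpeptidergic score Dpysl2 (0.60, adjusted p = 0.00132), Syt1 (0.25, adjusted p = 0.00934) and the deubiquitinase gene Usp5 (0.28, adjusted p = 0.0290) rose, and none of these 3 was called without the 2 libraries farthest from the median score.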

How the data were processed

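Transcript levels were analysed in 3 male and 3 female SNL and 11 male and 11 female naïve libraries, grouped by the sample labels. Each library pools 2 mice, so p-values measure the spread between pools. The authors aligned 75 bp reads to mm10 with STAR, keeping reads with a single match, and computed the deposited FPKM with Cufflinks, which scales by transcript length and mapped reads. Tool versions and the gene annotation used: not given in the sources used here. RIN is a score of RNA integrity that the authors deposited. FPKM carry no counts, so no counting interval was given, and strand was not stated, so reads of overlapping genes cannot be told apart. Columns of the authors' own comparisons hold fold changes and p-values and were not used.

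Genes with at least 1 FPKM in at least 2 SNL or 3 naïve libraries of a sex were tested by limma 3.58.1 in R 4.3.3, with an intensity trend on log2(FPKM + 1), and Benjamini-Hochberg adjustment over all of them. Fold changes on this scale understate changes of low genes. The fits were also run on simulated data with noise drawn independently for each gene. Genes of these libraries share depth, RNA quality and neuron makeup, so the setting differs, and no result here rests on it. Alternatives were a pseudocount of 0.1, no filter, other scalings, RIN as a covariate, a replicate block, no trend and leaving libraries out. Marker scores used listed genes that passed the filter. Gene positions are from GENCODE vM21. The genes named are the 10 members, the other subunit and partner genes past a threshold or most abundant, and for each member the 3 genes with the highest r, except 1 partner gene whose result is not reported here. The members and lists were chosen with earlier results of these data known. Calm3, Stac (after SNL), Stac2 (in naïve neurons), Stx1a, Snap25, Fmr1, Cacng4, Cacnb1, Cacna1g and Cacna1i were named after their values were seen.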

Additional observations from a re-analysis of the deposited data

How the results depend on the processing

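The counts of 0 subunit genes that differed by sex held under every alternative run, 13 after SNL and 30 in naïve neurons, and leaving out each library in turn gave 0 to 0 in both. The methods describe batches matched for sex, and the labels do not say which libraries shared a batch. The correlation of deviations within a replicate number was -0.21 to 0.26 over 3 pairs after SNL, with 2 above 0.1. In naïve neurons it was -0.16 to 0.28 over 11 pairs, with 1 above 0.1. The 3 pairs after SNL are too few to decide whether the numbers pair the libraries. The naïve values show little pairing by number, and other pairings were not tested. A fit with the replicate number as a block gave 0 subunit genes in both. Over all genes it gave 0 calls after SNL (5 without the block) and 5 in naïve neurons (7 without it). Small fold changes turned sign. In naïve neurons Cacna1b was 0.0156 under quantile normalization. With RIN as a covariate, on the 21 libraries that have one, Cacna1a was -0.106 and Cacna2d3 0.0559. Leaving out 1 library gave -0.0233 to 0.1998 for Cacna1a, negative without male replicate 7, and -0.16 to 0.0012 for Cacna1b and -0.199 to 0.0379 for Cacna2d1, both positive without male replicate 11. After SNL Cacna2d1 was 0.0288 under quantile normalization and 0.0522 under median-of-ratios scaling, and -0.32 to 0.14 with 1 library left out. The adjusted p stayed at or above 0.35 for every subunit gene in these fits that leave out 1 library. With a pseudocount of 0.1, 1 subunit gene was called on the large-diameter score (Cacna1h) and 1 on the nonpeptidergic score (Cacna1b), against 0 with a pseudocount of 1, and the cause was not tested. The 10 slopes called among other subunit and partner genes were each refitted under 4 alternatives, and the call held in 30 of these refits and was lost in 10. Counts over all genes moved more. After SNL 5 genes differed by sex, 0 with no filter on low values and 5 to 13 with 1 library left out. With all libraries 6 genes rose and 3 fell on RIN, 37 and 2 on the satellite glia, 385 and 203 on the large-diameter, 29 and 3 on the injury, 885 and 553 on the nonpeptidergic and 140 and 28 on the low-threshold score. Without the 2 libraries farthest from the median score the number called in both directions was 0 on RIN (51 with a pseudocount of 0.1 and 17 with median-of-ratios scaling), 9 on the satellite glia, 299 on the large-diameter, 11 on the injury (17 with a pseudocount of 0.1) and 1 on the nonpeptidergic score, and it rose to 210 on the low-threshold score. Without the libraries low in trunk Hox genes it was 0, 20, 255, 15 and 1165 on these, and 8 on the low-threshold score. The percentages in the text belong to the full set of libraries. FPKM without counts set no depth limit for single values, so low members such as Cacna1d and Cacna1e are described by level alone.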
